A study of Mus musculus with 3 samples.

Results

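The subject here is a set of 8 junction genes, followed through the cell classes of mouse brain after traumatic brain injury: the claudins Cldn1, Cldn2, Cldn5, Cldn10, Cldn11 and Cldn12, occludin (Ocln) and Tjp1, which encodes the scaffold protein ZO-1. They were chosen by name from the 55357 genes that each deposited matrix lists, and all 8 were found. Single-cell RNA-seq libraries had been made from left perilesional cerebral tissue of male C57BL/6 mice aged 6 to 8 weeks, after enzymatic digestion with collagenases and neutral protease and removal of red and dead cells. The sham library came from mice of the control group and the TBI+PBS library from injured mice given phosphate-buffered saline for 3 days. The TBI+IL-25 library came from injured mice given interleukin-25 at 1 µg per mouse. Interleukin-25 was given within 30 minutes of injury and then daily for 3 days. There was 1 library per group, with the number of animals behind it not stated, so every ratio below compares 2 libraries and carries no test across conditions. Intervals are exact 95% intervals that cover counting error only.

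Tight junctions seal neighbouring cells to each other and decide what passes between them. Claudins are small membrane proteins that form the strands of the junction. Some claudins close the gap, as claudin-5 does between the endothelial cells of the blood-brain barrier, and others form pores for ions or water, as claudin-2 does in the epithelium of the choroid plexus. Occludin sits in the same strands, and ZO-1 ties the strands to the actin cytoskeleton. Claudin-11 seals the layers of the myelin sheath, which oligodendrocytes make. The title of the series names the integrity of the blood-brain barrier as its question, so the levels of these genes in each barrier-forming and glial class are what the libraries can show on it.

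After filtering, the sham library kept 8710 cells, the TBI+PBS library 10299 and the TBI+IL-25 library 13532, with medians of 4111, 4666 and 3841 unique molecular identifiers (UMIs, each a counted RNA molecule) per cell. The pairs of libraries shared 27, 24 and 39 cell barcodes, of which 0 had equal UMI totals. Cells were grouped into 25 clusters without the junction genes followed here, or the others compared below, among the genes used for clustering. Clusters were named from marker genes that include none of these, and all 25 received 1 of 13 class names. The markers do include the gap junction genes Gja1 and Gjb6 (astrocyte) and the cell contact gene Pecam1 (endothelial). The 6 classes followed here held 31138 of the 32541 kept cells. Endothelial-like cells numbered 36 in sham, 220 in TBI+PBS and 50 in the TBI+IL-25 library. The counts in the same order were 44, 68 and 117 for choroid plexus-like cells, 15, 27 and 50 for ependymal-like cells, and 45, 217 and 643 for oligodendrocyte-like cells. Astrocyte-like cells numbered 3280, 4519 and 6686, and microglia-like cells 4998, 4592 and 5531. Levels are in CPM, a gene's UMIs for every 1000000 UMIs of its class in that library, so a level says nothing of how many cells the class had. All markers of the class itself were detected in every library for each of the 6 classes. Detected means at least 1 UMI in the class, and the 11 microglia markers were all detected in each other class too. Detection alone therefore does not support a class name.

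Among the 6 classes, each of the 8 genes had the same class on top in all 3 libraries, as the plot of levels by class shows. Among all 17377 genes measured the same way, 50.1% did so. Cldn5, Ocln and Tjp1 were highest in endothelial-like cells, which led for 6.68% of all genes in every library. For Ocln the interval there overlapped that of ependymal-like cells in sham and in TBI+IL-25. Cldn1 and Cldn2 were highest in choroid plexus-like cells, the top class of 3.67% of all genes. Cldn11 was highest in oligodendrocyte-like cells, the top class of 6.63%, and Cldn10 in astrocyte-like cells, the top class of 10.5%. Cldn12 was highest in ependymal-like cells, the top class of 11%, but its interval there overlapped that of astrocyte-like cells in every library. None of the 8 was highest in microglia-like cells, the top class of 11.6% of all genes.

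**Figure D1:**
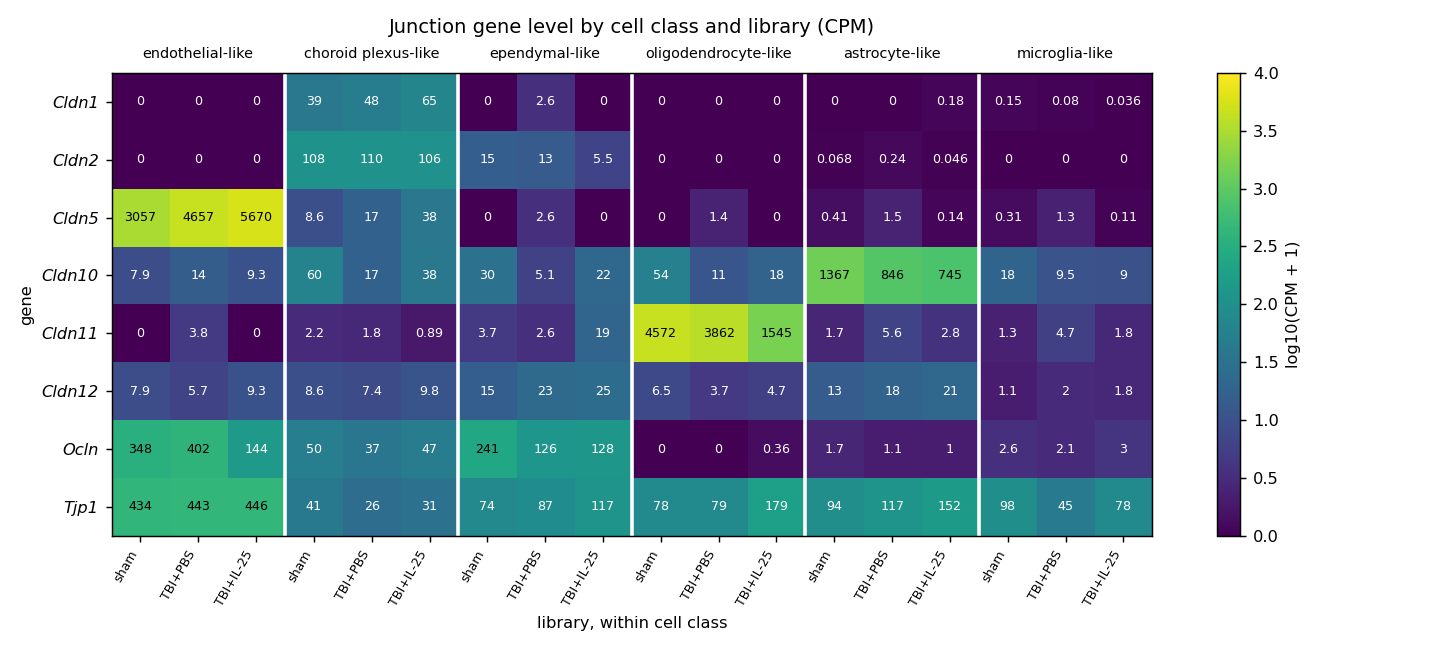
Level of each of the 8 junction genes (rows) in 6 cell classes, with sham, TBI+PBS and TBI+IL-25 as columns within each class. Printed numbers are CPM and the colour is log10(CPM + 1). Cldn5, Cldn10 and Cldn11 each stand out in 1 class, whereas Tjp1 was above 25 CPM in every class and library.

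The genes also differed in how much of their RNA came from 1 class. Of all Cldn5 UMIs in kept cells, endothelial-like cells held 92.6% in sham, 97.8% in TBI+PBS and 96.2% in the TBI+IL-25 library. Astrocyte-like cells held 97.6%, 97.7% and 97.4% of Cldn10 UMIs. Oligodendrocyte-like cells held 97.3%, 96.6% and 96.9% of Cldn11 UMIs. These 3 claudins were thus nearly confined to 1 class in each library. Tjp1 was spread over classes, with microglia-like cells holding 54.4% of all Tjp1 UMIs found in sham, 26.0% in TBI+PBS and 34.7% in the TBI+IL-25 library, and astrocyte-like cells 39.5%, 55.6% and 52.8%. Endothelial-like cells, where its level was highest among the 6 classes, held 1.56%, 10.6% and 1.54%. For Ocln the endothelial-like share was 21.2% in sham, 73.9% in TBI+PBS and 12.9% in the TBI+IL-25 library. That share was highest in the library with the largest fraction of endothelial-like cells, which was 0.413%, 2.14% and 0.369% in the same order.

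In endothelial-like cells, Cldn5 was higher in both injured libraries than in sham, Ocln was lower in the TBI+IL-25 library than in either of the others, and Tjp1 differed little. Cldn5 (ENSMUSG00000041378) encodes the main strand-forming claudin of brain endothelium. Its promoter, the 250 bases before the annotated start at chr16:18776597-18776846 on the plus strand (RefSeq, GRCm38.p6), is shown because this gene marks the barrier cells. Capitals mark CCAAT boxes (CCAAT, or ATTGG on the other strand) and GC boxes (GGGCGG, or CCGCCC on the other strand). All 8 genes had an entry among the RefSeq promoters. The CCAAT boxes start 118 and 88 bases before the start and the GC box 45 bases before it. Of 32851 RefSeq mouse promoter windows of the same length, 33.8% held a CCAAT box and 32.7% a GC box, and a match of letters is no evidence of a bound factor.
Cldn5 promoter: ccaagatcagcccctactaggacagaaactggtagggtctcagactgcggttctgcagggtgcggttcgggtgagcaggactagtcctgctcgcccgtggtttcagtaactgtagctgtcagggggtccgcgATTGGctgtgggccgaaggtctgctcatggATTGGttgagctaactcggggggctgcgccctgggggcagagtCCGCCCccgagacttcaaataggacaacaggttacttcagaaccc

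The Cldn5 level in endothelial-like cells was 3057 CPM in sham (387 UMIs, 2760 to 3377), 4657 CPM in TBI+PBS (4910 UMIs, 4527 to 4789) and 5670 CPM in TBI+IL-25 (1221 UMIs, 5356 to 5997). The 3 intervals did not overlap. The ratio of TBI+PBS to sham was 1.52 (1.37 to 1.69), that of TBI+IL-25 to sham 1.85 (1.65 to 2.09) and that of TBI+IL-25 to TBI+PBS 1.22 (1.14 to 1.30). A ratio is called here when it is at least 1.5-fold in either direction, its interval excludes 1 and the pair of libraries holds at least 20 UMIs. By this rule the first 2 ratios were called higher and the third was not called. The call for TBI+PBS against sham was lost, at a ratio of 1.48, without the cells that held 10 or more marker UMIs of microglia or astrocytes. Nearly every cell held Cldn5: 35 of 36 in sham, 216 of 220 in TBI+PBS and 50 of 50 in TBI+IL-25. The median cell held 8, 15.5 and 19.5 Cldn5 UMIs, and the middle quartiles ran from 4.75 to 16.25, from 9 to 31 and from 12.25 to 26.5, so single cells of the 3 libraries overlapped widely. Oligodendrocyte-like cells, which were deeper, held it in 0 of 45, 3 of 217 and 0 of 643 cells.

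Ocln (ENSMUSG00000021638), the gene of occludin, was at 348 CPM in sham endothelial-like cells (44 UMIs, 253 to 467), 402 CPM in TBI+PBS (424 UMIs, 365 to 442) and 144 CPM in TBI+IL-25 (31 UMIs, 97.8 to 204). The TBI+IL-25 interval lay below both others, which overlapped. Ocln was called lower in TBI+IL-25 than in sham at 0.414 (0.253 to 0.671) and than in TBI+PBS at 0.358 (0.240 to 0.516), while TBI+PBS against sham gave 1.16 (0.847 to 1.62). It was found in 58.3% of the cells in sham (40.8% to 74.5%), 70.9% in TBI+PBS (64.4% to 76.8%) and 38.0% in the TBI+IL-25 library (24.7% to 52.8%). After thinning every cell to 1000 UMIs Ocln was in 9 of 30, 59 of 198 and 9 of 50 cells, with overlapping intervals of the share (14.7% to 49.4%, 23.5% to 36.7% and 8.58% to 31.4%). Median depth was alike, at 3389.5, 3965.5 and 3488.5 UMIs per cell. Neuroblast-like cells, which should lack Ocln, held it in 0 of 255, 0 of 263 and 0 of 140 cells. Both calls were kept under each alternative that gave a value. That against sham, with 75 UMIs over the pair, has none at a minimum of 100 UMIs, and neither has one over clusters with at least 100 cells of every library.

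Tjp1 (ENSMUSG00000030516) was at 434 CPM in sham endothelial-like cells (55 UMIs, 327 to 565), 443 CPM in TBI+PBS (467 UMIs, 404 to 485) and 446 CPM in TBI+IL-25 (96 UMIs, 361 to 544). The 3 intervals overlapped almost fully. Its ratios were 1.02 (0.770 to 1.37) for TBI+PBS against sham, 1.03 (0.729 to 1.46) for TBI+IL-25 against sham and 1.01 (0.799 to 1.26) for TBI+IL-25 against TBI+PBS. A difference within those intervals could not be seen at this depth. Tjp1 was found in 69.4%, 70.5% and 68.0% of the cells, beside 0 of 10, 4.03% and 2.83% of monocyte/macrophage-like cells, whose median depths were 5344, 9634.5 and 5546 UMIs.

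Taken cell by cell, UMIs of Cldn5, Ocln and Tjp1 together were held by 16 of 36 endothelial-like cells in sham, 123 of 220 in TBI+PBS and 15 of 50 in the TBI+IL-25 library. Cldn5 without the other two was found in 5, 29 and 12 cells. The remaining listed genes were near or at 0 in this class: Cldn1 and Cldn2 had 0 UMIs in every library, which allows up to 23.7, 2.85 and 13.9 CPM. In all, 1 of 3 measured genes was called for TBI+PBS against sham, where 8.65% of 7662 genes were. It was 2 of 3 for TBI+IL-25 against sham, beside 23.0% of 3590 genes, and for TBI+IL-25 against TBI+PBS 1 of 3, beside 14.4% of 7892 genes. The median ratios of the 3 genes were 1.16, 1.03 and 1.01, and those of all genes 1.01, 1.03 and 0.960.

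Other values moved with the libraries in this class. The summed level of the 12 endothelial markers was 31696 CPM in sham, 26696 in TBI+PBS and 16151 in the TBI+IL-25 library, with all 12 detected in each. Among them Itm2a, Slco1a4 and Pltp, at 6785, 4028 and 3886 CPM in sham, were at 1291, 734 and 868 CPM in TBI+IL-25, whereas Flt1, a receptor for vascular endothelial growth factor, went from 2859 through 3311 to 4616 CPM. The 11 pericyte and smooth muscle markers summed to 348, 1158 and 2587 CPM, with 6, 11 and 11 of them detected (Kcnj8, Abcc9, Acta2, Tagln and Myh11 were at 0 in sham), and the 11 microglia markers to 4960, 2388 and 3738 CPM. Their part in the differences of Cldn5 and Ocln was not tested. In the 32, 200 and 39 cells with fewer than 10 UMIs of microglia and of astrocyte markers, Cldn5 was at 3350, 4948 and 6603 CPM, Ocln at 390, 422 and 151 CPM and Tjp1 at 476, 451 and 493 CPM. The order of the libraries for Cldn5 and Ocln was the same in these cells.

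**Figure D2:**
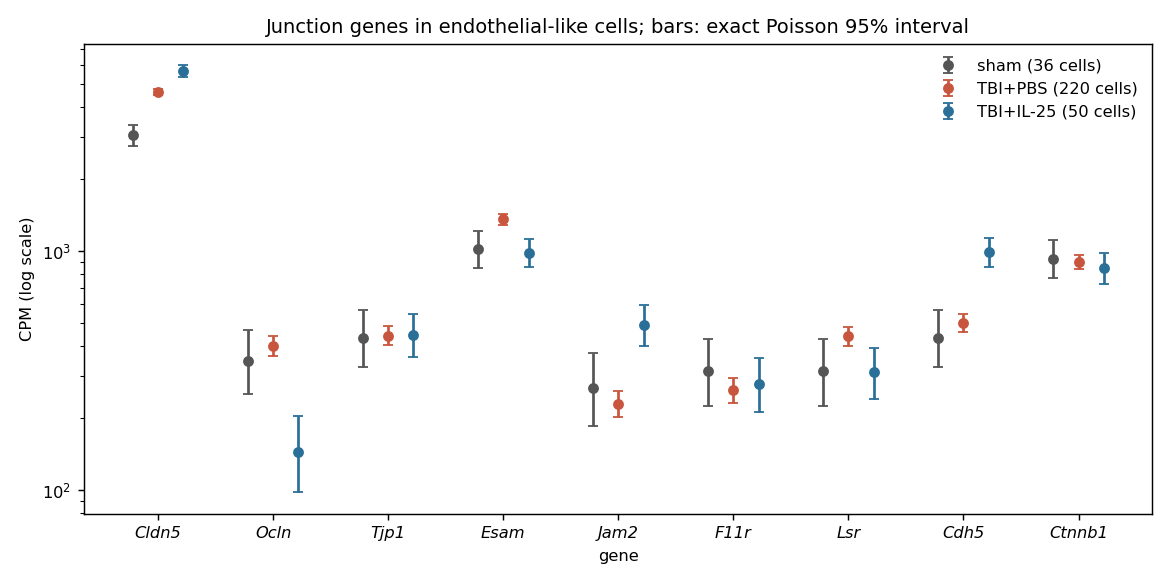
Level in endothelial-like cells (CPM, log scale) of Cldn5, Ocln, Tjp1 and 6 other junction genes in the sham, TBI+PBS and TBI+IL-25 libraries; bars are exact Poisson 95% intervals. Ocln is lower in TBI+IL-25 than in both other libraries, Cdh5 and Jam2 are higher, and Tjp1 overlaps in all 3.

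Other junction genes put these values in context, from 4 lists of 55 names, of which 53 were in the matrices. In endothelial-like cells 26 of the 53 had enough UMIs for TBI+PBS against sham, and 1 was called: Amotl2, a scaffold of the angiomotin family, at 0.440 (0.258 to 0.788). All 4 of the 16 that were called for TBI+IL-25 against sham were higher. They were Vcl (vinculin, which links adherens junctions to actin) at 3.65 (1.41 to 12.0), Cdh5 (VE-cadherin, the endothelial adherens junction receptor) at 2.28 (1.69 to 3.12), Ctnnd1 (p120 catenin, which holds cadherins at the membrane) at 2.03 (1.02 to 4.41) and Jam2 (a junctional adhesion molecule) at 1.83 (1.24 to 2.78). Cdh5 was at 434 CPM in sham, 501 in TBI+PBS and 989 in the TBI+IL-25 library, and Jam2 at 269, 230 and 492 CPM. Between TBI+IL-25 and TBI+PBS 7 of 26 were called, 6 of them higher in the former. The 3 highest were Vcl at 2.17 (1.37 to 3.35), Jam2 at 2.14 (1.69 to 2.71) and Cdh5 at 1.98 (1.68 to 2.32), and the lowest was Ildr2, of the angulin family of tricellular junctions, at 0.245 (0.0651 to 0.652). These counts stand beside 8.65%, 23.0% and 14.4% of all genes called in the 3 comparisons, so the share was near the background for TBI+IL-25 against sham. By list, 3 of 10 adherens genes were called higher for TBI+IL-25 against TBI+PBS, 2 of 9 plaque genes higher, 1 of 6 occludin relatives, tricellular and JAM genes higher and 1 lower, and 0 of 1 other claudins. The median ratios of these genes in the 3 comparisons were 1.15, 1.17 and 1.02. Calls of these other genes were not repeated under the alternatives used for the listed genes. The part of pericyte and smooth muscle RNA in their ratios was not tested.

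In choroid plexus-like cells, Cldn1 and Cldn2 marked the class, and neither was called different between libraries. Cldn2 (ENSMUSG00000047230) encodes a claudin that forms pores for cations and water, and Cldn1 (ENSMUSG00000022512) encodes a sealing claudin. The Cldn2 promoter at chrX:139800558-139800807 on the plus strand (RefSeq, GRCm38.p6) is shown beside that of Cldn5 because it holds a TATA box (TATAAA, or TTTATA on the other strand, in capitals) 35 bases before the start, while that of Cldn5 holds none. Of all windows, 12.4% held one.
Cldn2 promoter: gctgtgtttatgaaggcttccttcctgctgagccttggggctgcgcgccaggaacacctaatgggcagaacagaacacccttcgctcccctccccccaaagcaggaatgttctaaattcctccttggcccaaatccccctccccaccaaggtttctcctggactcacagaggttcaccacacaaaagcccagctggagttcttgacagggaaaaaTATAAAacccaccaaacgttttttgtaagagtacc

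Cldn2 was at 108 CPM in sham choroid plexus-like cells (50 UMIs, 80.1 to 142), 110 CPM in TBI+PBS (60 UMIs, 84.2 to 142) and 106 CPM in TBI+IL-25 (118 UMIs, 87.4 to 126). The 3 levels were nearly equal, with ratios of 1.02 (0.691 to 1.52), 0.978 (0.697 to 1.39) and 0.957 (0.695 to 1.33) for TBI+PBS against sham, TBI+IL-25 against sham and TBI+IL-25 against TBI+PBS. Ependymal-like cells came next among the 6 classes, at 14.9, 12.8 and 5.45 CPM from 4, 5 and 2 UMIs. Microglia-like cells held Cldn2 in 0 of 4998, 0 of 4592 and 0 of 5531 cells, which allows shares of cells with a UMI of up to 0.0600%, 0.0653% and 0.0542% and says nothing of expression too low to give one. In choroid plexus-like cells the share was 43.2%, 27.9% and 37.6%, at median depths of 7048, 4120.5 and 5310 UMIs beside 3916, 4746.5 and 4730 UMIs in microglia-like cells.

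Cldn1 was at 38.9 CPM in sham choroid plexus-like cells (18 UMIs, 23.0 to 61.4), 47.8 CPM in TBI+PBS (26 UMIs, 31.2 to 70.1) and 65.3 CPM in TBI+IL-25 (73 UMIs, 51.2 to 82.1). The intervals overlapped, and the ratio of TBI+IL-25 to sham was 1.68 (0.993 to 2.99). It was carried by few cells, 8 of 44, 7 of 68 and 29 of 117, with up to 11, 9 and 12 UMIs in a cell. Outside this class Cldn1 was at or near 0: 4 UMIs in 6686 TBI+IL-25 astrocyte-like cells, at most 3 in microglia-like cells of a library, and 0 in endothelial-like and oligodendrocyte-like cells.

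The other members were present at lower levels or unevenly. Ocln was at 49.6, 36.8 and 47.4 CPM and Tjp1 at 41.0, 25.8 and 31.3 CPM in sham, TBI+PBS and TBI+IL-25, with every ratio interval including 1. Cldn5 was at 8.63, 16.6 and 37.6 CPM here, but its UMIs came from 2 of 44, 2 of 68 and 5 of 117 cells with up to 16 in a cell. Cldn10, the astrocyte claudin, was at 60.4, 16.6 and 38.5 CPM from 8, 5 and 16 cells. Leaving out cells with 10 or more marker UMIs of microglia or astrocytes took the Cldn10 ratio of TBI+PBS to sham from 0.274 to 1.01, with no call left. Calls numbered 1 of 5 measured genes for TBI+PBS against sham (Cldn10 lower), where 7.74% of 5515 genes were called. They numbered 1 of 6 for TBI+IL-25 against sham (Cldn5 higher), beside 14.5% of 7120 genes, and 2 of 6 for TBI+IL-25 against TBI+PBS (Cldn5 and Cldn10 higher), beside 13.3% of 7301 genes. The median ratios of the listed genes were 0.741, 0.967 and 1.33, and those of all genes 1.04, 1.02 and 0.973.

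In ependymal-like cells, the ciliated lining of the ventricles, Ocln was lower in both injured libraries than in sham. It was at 241 CPM in sham (65 UMIs, 186 to 308), 126 CPM in TBI+PBS (49 UMIs, 93.1 to 166) and 128 CPM in TBI+IL-25 (47 UMIs, 94.2 to 170). The sham interval lay above both others, which were nearly the same. The ratios to sham were 0.521 (0.352 to 0.767) and 0.531 (0.357 to 0.785), both called lower, and TBI+IL-25 against TBI+PBS gave 1.02 (0.668 to 1.55). These rest on 15, 27 and 50 cells, of which 14, 21 and 27 held Ocln, at median depths of 12772, 11345 and 6662 UMIs. After thinning to 1000 UMIs Ocln was in 3 of 15, 6 of 24 and 6 of 43 cells, with intervals of the share that overlapped (4.33% to 48.1%, 9.77% to 46.7% and 5.30% to 27.9%). Without the cells rich in microglia or astrocyte markers the first ratio was 0.560 and no longer called. In sham and TBI+IL-25 the Ocln level of ependymal-like cells overlapped that of endothelial-like cells, whose level was 1.44 and 1.12 times as high, whereas in TBI+PBS it was 3.20 times as high (2.37 to 4.39).

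Tjp1 in ependymal-like cells was at 74.3 CPM in sham (20 UMIs), 87.3 CPM in TBI+PBS (34 UMIs) and 117 CPM in TBI+IL-25 (43 UMIs), with every ratio interval including 1. Cldn12 (ENSMUSG00000046798) was at 14.9, 23.1 and 24.5 CPM from 4, 9 and 9 UMIs, too few for a call. The ependymal markers summed to 12085, 8300 and 12307 CPM and the astrocyte markers to 4047, 2536 and 4341 CPM in this class (Gjb6 was at 0 in TBI+PBS), with their part in the Ocln values not tested. Of the 2 measured genes, 1 was called for TBI+PBS against sham, beside 16.1% of 6242 genes, and 1 for TBI+IL-25 against sham, beside 15.5% of 6088 genes. Between TBI+IL-25 and TBI+PBS 0 of 2 was called, beside 12.9% of 6637 genes. Their median ratios were 0.848, 1.06 and 1.18, beside 0.958, 0.955 and 0.991 over all genes.

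In oligodendrocyte-like cells, Cldn11 was lower and Tjp1 higher in the TBI+IL-25 library than in both others. Claudin-11 forms the tight junction strands of central myelin. The Cldn11 promoter at chr3:31149670-31149919 on the plus strand (RefSeq, GRCm38.p6) is shown because this myelin claudin differed between the libraries. It holds CCAAT boxes (capitals) 66 and 35 bases before the start, and no GC or TATA box by the letters searched.
Cldn11 promoter: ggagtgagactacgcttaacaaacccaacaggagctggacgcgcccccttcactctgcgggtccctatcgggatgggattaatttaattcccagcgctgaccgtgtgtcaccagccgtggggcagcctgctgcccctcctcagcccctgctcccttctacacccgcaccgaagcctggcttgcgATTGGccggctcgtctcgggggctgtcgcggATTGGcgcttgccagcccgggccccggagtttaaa

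Cldn11 (ENSMUSG00000037625) was at 4572 CPM in sham oligodendrocyte-like cells (2104 UMIs, 4379 to 4772), 3862 CPM in TBI+PBS (8415 UMIs, 3780 to 3945) and 1545 CPM in TBI+IL-25 (4283 UMIs, 1499 to 1592). The 3 intervals did not overlap. The ratio of TBI+IL-25 was 0.338 (0.321 to 0.356) to sham and 0.400 (0.386 to 0.415) to TBI+PBS, both called lower, while TBI+PBS against sham gave 0.845 (0.805 to 0.886), not called. Cldn11 was found in 45 of 45, 217 of 217 and 600 of 643 cells, and in 95.6%, 93.4% and 74.0% after thinning to 1000 UMIs. Microglia-like cells held it in 0.520%, 2.55% and 0.868% of cells. The 11 oligodendrocyte markers as a whole moved the same way, from 78804 through 62458 to 39105 CPM. Mog, which encodes a glycoprotein of the outer myelin surface, was at 2036, 1705 and 637 CPM, but Ermn, also a gene of mature oligodendrocytes, was at 1436, 1622 and 2465 CPM. Median depth was 10264 and 8400 UMIs in sham and TBI+PBS and 3910 in TBI+IL-25. The part of these in the Cldn11 ratio was not tested. Per 1000 UMIs of those markers there were 58.0, 61.8 and 39.5 Cldn11 UMIs.

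Tjp1 was at 78.2 CPM in sham oligodendrocyte-like cells (36 UMIs, 54.8 to 108), 79.4 CPM in TBI+PBS (173 UMIs, 68.0 to 92.2) and 179 CPM in TBI+IL-25 (497 UMIs, 164 to 196). The TBI+IL-25 interval lay above both others. Its ratio was 2.29 (1.63 to 3.31) to sham and 2.26 (1.90 to 2.70) to TBI+PBS, both called higher. The share of cells with a UMI was 53.3%, 46.1% and 47.4% at the full, unequal depths and 4.44%, 6.10% and 16.5% after thinning. The Cldn11 and Tjp1 calls of TBI+IL-25 in this class were kept under each alternative that gave a value, which the one over clusters with at least 100 cells of every library did not. Cldn10 was at 54.3, 10.6 and 18 CPM from 25, 23 and 50 UMIs, at most 14 of them in a cell, and its calls against sham were lost without the cells rich in microglia or astrocyte markers. In all, 1 of 3 measured genes was called for TBI+PBS against sham, beside 11.5% of 9155 genes. It was 3 of 3 for TBI+IL-25 against sham, beside 26.5% of 9436 genes, and 3 of 4 for TBI+IL-25 against TBI+PBS, beside 27.2% of 10514 genes. The median ratios were 0.845, 0.338 and 1.49, beside 1.06, 1.07 and 0.985 over all genes.

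The other plaque and adherens genes of this class were called about as often as all genes. Between TBI+IL-25 and TBI+PBS, 3 of 7 measured plaque genes and 2 of 9 adherens genes were called higher in TBI+IL-25 and 0 lower, beside 27.2% of all genes called in either direction. Cdh2 (N-cadherin) was at 93.4, 72.5 and 167 CPM, at 2.30 (1.91 to 2.77) to TBI+PBS and 1.78 (1.30 to 2.50) to sham. Cldn14, the most abundant of the other claudins here, went the other way, at 23.9, 46.4 and 8.30 CPM.

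In astrocyte-like cells, Cldn10 was lower in both injured libraries than in sham, and Tjp1 was highest in TBI+IL-25. Cldn10 (ENSMUSG00000022132) encodes an ion-selective claudin. It was at 1367 CPM in sham (20157 UMIs, 1349 to 1386), 846 CPM in TBI+PBS (17694 UMIs, 834 to 859) and 745 CPM in TBI+IL-25 (16154 UMIs, 733 to 756). The 3 intervals did not overlap, and the ratios to sham were 0.619 (0.606 to 0.631) and 0.545 (0.533 to 0.556), both called lower. TBI+IL-25 against TBI+PBS gave 0.880 (0.862 to 0.899), not called. Cldn10 was found in 92.3%, 81.2% and 72.2% of cells, and in 72.0%, 54.4% and 48.9% after thinning. Microglia-like cells held it in 6.52%, 4.64% and 4.09% of cells.

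Cldn10 differed less between libraries within clusters 2, 3 and 13 than over the whole class, but not within cluster 6, as the plot by cluster shows. Astrocyte-like cells fell into 7 clusters, of which 2, 3, 6 and 13 held at least 100 cells of every library. In 2, 3 and 13 Cldn10 was between 1169 and 1610 CPM in each library: in cluster 2 at 1301, 1425 and 1610 CPM in sham, TBI+PBS and TBI+IL-25, in cluster 3 at 1378, 1169 and 1291 CPM, and in cluster 13 at 1326, 1255 and 1261 CPM. Cluster 6, whose cells were shallow (median 794 UMIs), was at 1778, 1026 and 869 CPM, lower in both injured libraries within the cluster. Clusters 4, 9 and 10 held cells almost only of injured libraries. In cluster 10, led by Lcn2, Tgm1 and Serpina3n, Cldn10 was at 326 CPM in both TBI+PBS and TBI+IL-25. It was at 476 CPM in the 2656 TBI+IL-25 cells of cluster 4 and at 506 CPM in the 1128 TBI+PBS cells of cluster 9. With 1 library per group, a cluster made mostly of 1 library may be that library rather than a type of cell. Over the clusters with at least 100 cells of every library (2, 3, 6 and 13) the ratios to sham were 0.941 for TBI+PBS and 0.957 for TBI+IL-25, neither called. UMIs were summed, so the shallow cells of cluster 6 weigh little in these 2 ratios. The part of cell state, library or injury in the Cldn10 values was not tested.

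Tjp1 in astrocyte-like cells was at 94.4 CPM in sham (1392 UMIs, 89.5 to 99.5), 117 CPM in TBI+PBS (2441 UMIs, 112 to 121) and 152 CPM in TBI+IL-25 (3301 UMIs, 147 to 157). The 3 intervals did not overlap, and TBI+IL-25 against sham was called higher at 1.61 (1.51 to 1.72). The other ratios were 1.24 (1.16 to 1.32) for TBI+PBS against sham and 1.30 (1.24 to 1.37) for TBI+IL-25 against TBI+PBS. In the clusters shared by all libraries the ratio of TBI+IL-25 to sham was 1.39, below the fold of a call, and that of TBI+PBS to sham was 0.974. By cluster, Tjp1 was 128 CPM in TBI+IL-25 against 103 in sham and 90.9 in TBI+PBS in cluster 2, 142 against 94.4 and 98.9 in cluster 3, 92.9 against 62.3 and 77.9 in cluster 6, and 152 against 77.2 and 85.2 in cluster 13. Cldn12, a claudin without the usual ZO-binding tail, was at 13.4, 18 and 20.7 CPM (197, 376 and 449 UMIs), called higher in TBI+IL-25 than in sham at 1.55 (1.31 to 1.84) but not with cells weighed equally (1.37). Ocln was near 0 here, at 1.70, 1.05 and 1.01 CPM.

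Cldn5 and Cldn11 were also near 0 in astrocyte-like cells. Cldn5 was at 0.407, 1.53 and 0.138 CPM (6, 32 and 3 UMIs) and Cldn11 at 1.70, 5.64 and 2.81 CPM (25, 118 and 61 UMIs). Both were highest in TBI+PBS, and microglia-like cells had much the same levels, 0.306, 1.31 and 0.107 CPM for Cldn5 and 1.33, 4.73 and 1.75 CPM for Cldn11. Levels this low and this alike in unlike classes are not read as expression, and their source was not tested. Their ratios pass the rule of a call all the same and are part of the counts that follow. In astrocyte-like cells 3 of 6 measured genes were called for TBI+PBS against sham, beside 25.9% of 16560 genes. It was 4 of 5 for TBI+IL-25 against sham, beside 53.2% of 16555 genes, and for TBI+IL-25 against TBI+PBS 2 of 6, beside 33.3% of 16774 genes. The median ratios were 1.29, 1.55 and 0.922, beside 0.958, 0.821 and 0.867 over all genes.

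**Figure D3:**
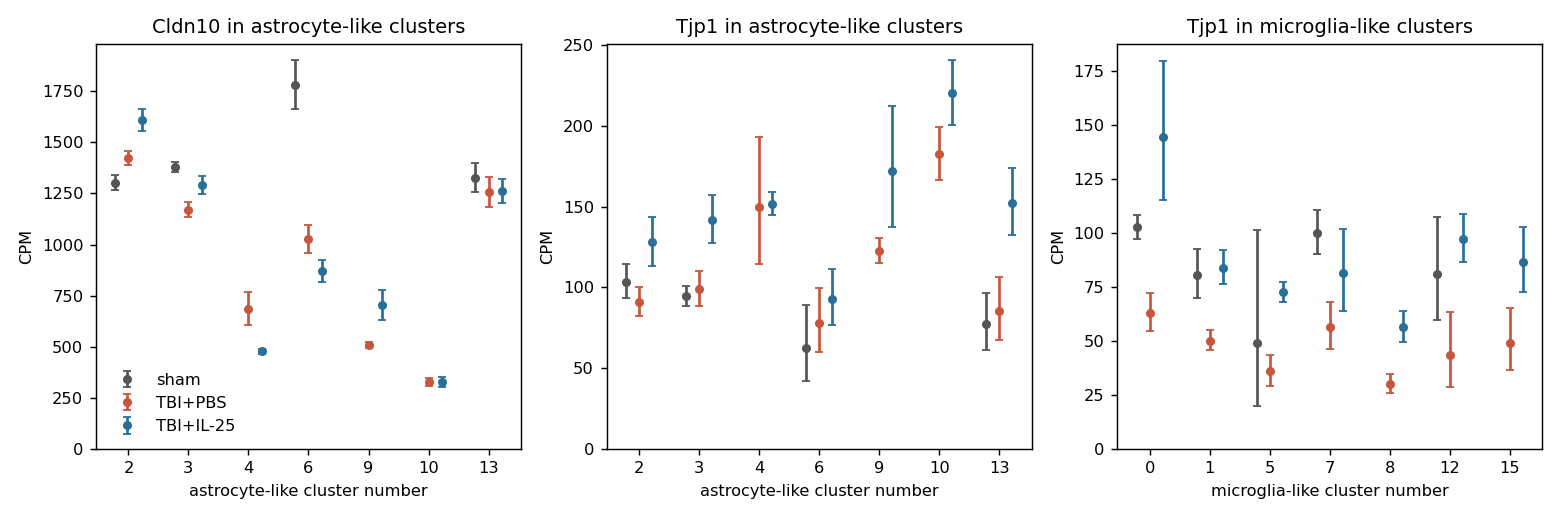
Level (CPM) of Cldn10 and Tjp1 in the 7 astrocyte-like clusters and of Tjp1 in the 7 microglia-like clusters, by library, with exact Poisson 95% intervals and with fewer than 20 cells left out. Cldn10 lies above 1000 CPM in clusters 2, 3 and 13 in every library and below 750 CPM in clusters 4, 9 and 10, and Tjp1 is higher in TBI+IL-25 than in TBI+PBS in each microglia-like cluster.

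In microglia-like cells, Tjp1 was lower in the TBI+PBS library than in both others. It was at 97.8 CPM in sham (1918 UMIs, 93.5 to 102), 45.3 CPM in TBI+PBS (1139 UMIs, 42.7 to 48.0) and 77.5 CPM in TBI+IL-25 (2167 UMIs, 74.3 to 80.9). The 3 intervals did not overlap. The ratio of TBI+PBS to sham was 0.463 (0.430 to 0.499), called lower, that of TBI+IL-25 to TBI+PBS 1.71 (1.59 to 1.84), called higher, and that of TBI+IL-25 to sham 0.793 (0.745 to 0.843), not called. It was found in 29.8%, 20.5% and 30.0% of cells, and in 9.24%, 5.25% and 7.23% after thinning. Monocyte/macrophage-like cells, which are also myeloid, were at 5.60 CPM in TBI+PBS and 6.46 CPM in the TBI+IL-25 library.

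TBI+PBS was also lowest inside the clusters. Tjp1 was at 103, 62.9 and 145 CPM in sham, TBI+PBS and TBI+IL-25 in cluster 0, at 80.5, 50.2 and 83.8 CPM in cluster 1, at 100.0, 56.4 and 81.4 CPM in cluster 7 and at 81.1, 43.7 and 97.4 CPM in cluster 12. TBI+IL-25 was above sham in clusters 0, 1 and 12 and below it in cluster 7. TBI+IL-25 was also above TBI+PBS in clusters 5, 8 and 15, at 72.6, 56.4 and 86.8 CPM against 35.9, 30.1 and 49.2 CPM. The 11 microglia markers summed to 44181, 38307 and 29685 CPM in sham, TBI+PBS and TBI+IL-25, and their orders differed. P2ry12 went from 4096 through 1505 to 892 CPM. Cx3cr1, at 3647, 2625 and 3682 CPM, and Sall1, at 400, 219 and 303 CPM, were lowest in TBI+PBS, as Tjp1 was. The part of these markers in the Tjp1 values was not tested. Both called Tjp1 ratios stayed called under each alternative that gave a value.

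Ocln was low in microglia-like cells, at 2.60 CPM in sham (51 UMIs, 1.94 to 3.42), 2.15 CPM in TBI+PBS (54 UMIs, 1.61 to 2.80) and 3.04 CPM in TBI+IL-25 (85 UMIs, 2.43 to 3.76). The 3 intervals overlapped. For each 1000 UMIs of endothelial markers there were 46.4, 52.1 and 89.4 Ocln UMIs in microglia-like cells and 11, 15.1 and 8.91 in endothelial-like cells. For Cldn5 the order was turned: 5.45, 31.9 and 3.15 in microglia-like cells and 96.4, 174 and 351 in endothelial-like cells. Astrocyte-like cells held Ocln at 1.70, 1.05 and 1.01 CPM. The source of the Ocln UMIs in microglia-like cells was not tested. Of the measured genes 5 of 6 were called for TBI+PBS against sham, beside 30.2% of 14966 genes. They were Tjp1 and Cldn10 (lower) and Cldn5, Cldn11 and Cldn12 (higher), the last 4 at levels under 20 CPM. For TBI+IL-25 against sham 1 of 5 was called, beside 46.0% of 15354 genes, and for TBI+IL-25 against TBI+PBS 3 of 6, beside 23.6% of 15391 genes. The median ratios were 1.32, 1.17 and 0.920, beside 0.895, 0.870 and 0.961 over all genes.

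Over the 6 classes, 25 of the 48 pairs of gene and class had enough UMIs to compare TBI+PBS with sham, and 12 were called, 6 higher and 6 lower. For TBI+IL-25 against sham 12 of 24 were called, 6 higher and 6 lower, and for TBI+IL-25 against TBI+PBS 11 of 27, 5 higher and 6 lower. The 3 comparisons share libraries and are not independent of each other. The calls went both ways within each comparison, as the plot of ratios shows. Those of Tjp1 went 1 way within each: lower in microglia-like cells for TBI+PBS against sham, higher in oligodendrocyte-like and astrocyte-like cells for TBI+IL-25 against sham, and higher in oligodendrocyte-like and microglia-like cells for TBI+IL-25 against TBI+PBS. This holds for calls only. Short of the fold, Tjp1 went the other way in astrocyte-like cells for TBI+PBS against sham (1.24) and in microglia-like cells for TBI+IL-25 against sham (0.793), with intervals that excluded 1. The 53 other junction genes gave 20 calls among 130 measured pairs, 41 among 132 and 33 among 147 in the same 3 comparisons. Over all genes, the share called in a class ran from 7.74% to 30.2% for TBI+PBS against sham. It ran from 14.5% to 53.2% for TBI+IL-25 against sham and from 12.9% to 33.3% for TBI+IL-25 against TBI+PBS.

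**Figure D4:**
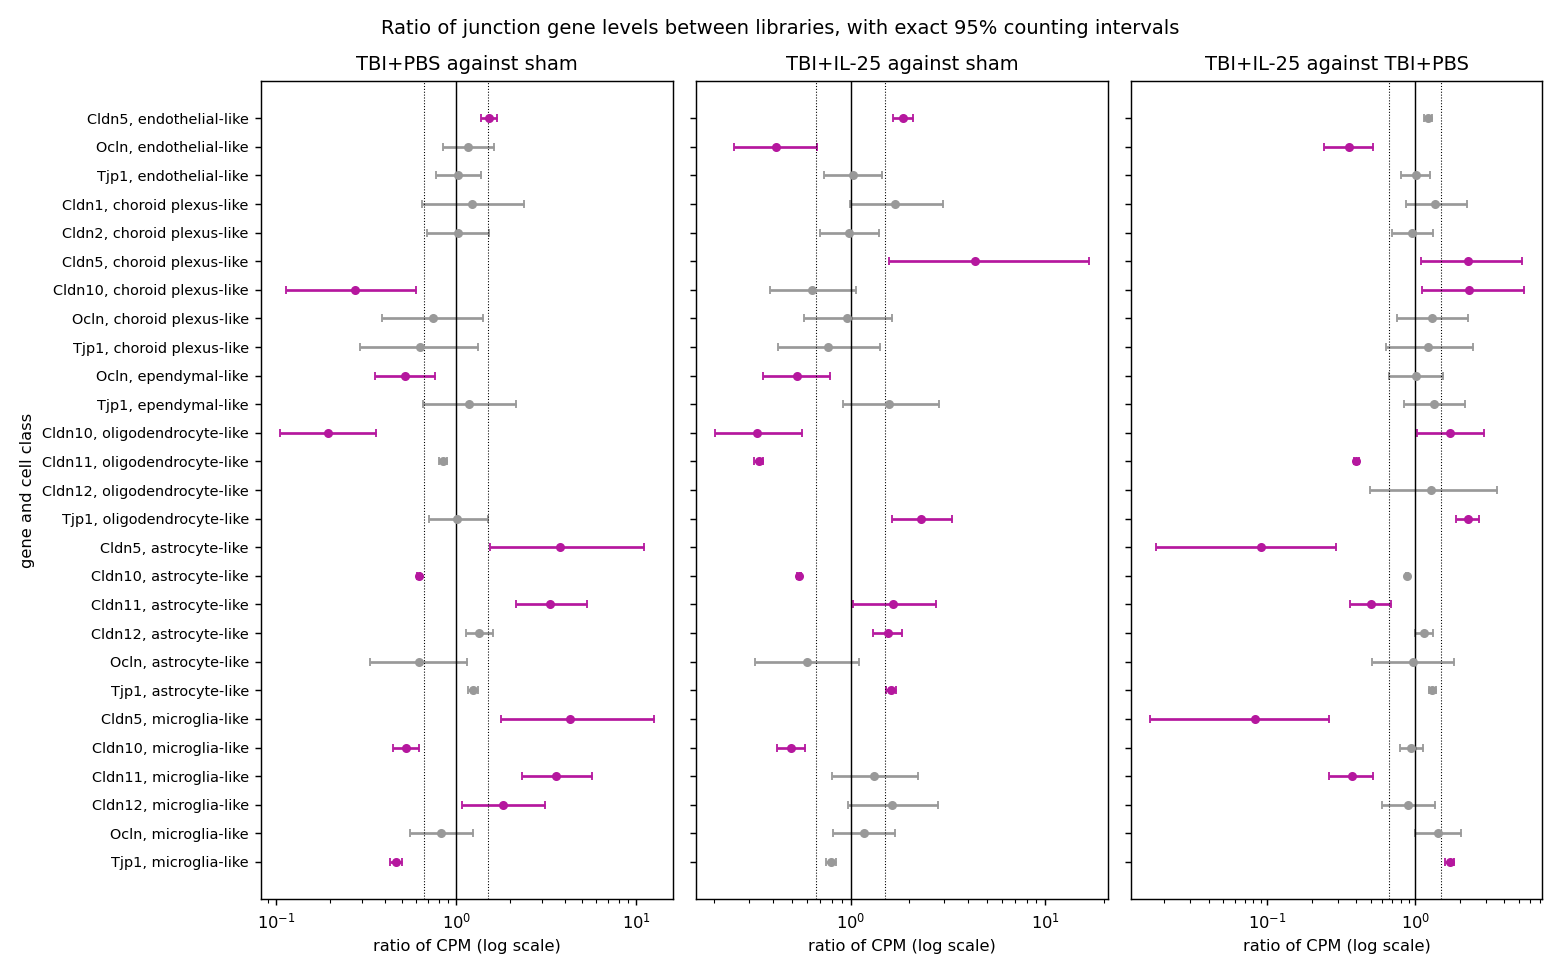
Ratio of CPM between 2 libraries (log scale) for each listed gene and class with at least 20 UMIs over the pair, with exact 95% counting intervals; dotted lines mark 1.5-fold, and magenta points are called. Ocln in endothelial-like cells lies left of 1 in both comparisons of TBI+IL-25, Cldn11 in oligodendrocyte-like cells lies left of 1 in all 3, and Tjp1 in endothelial-like cells spans 1 in all 3.

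The genes whose levels ran most like those of each member were found by Pearson's r of log2(CPM + 10) over the 18 points made of 6 classes and 3 libraries, which share libraries and depth. Cldn5 ran closest to Cyyr1 (0.999), Esam (0.995) and Scarf1 (0.995), of which Esam encodes an endothelial adhesion molecule. Cldn11 ran closest to Nfe2l3 (0.998), Tmeff2 (0.998) and Ugt8a (0.997), which makes the myelin lipid galactosylceramide. Cldn2 ran closest to Epn3 (0.996), Sema3b (0.993) and Clic6 (0.992), and Cldn1 to Tc2n (0.997), Prcd (0.995) and Prlr (0.995). Clic6 and Prlr are among the markers of choroid plexus that named the class, Ugt8a among those of oligodendrocytes and Pltp among those of endothelium. Cldn10 ran closest to Lsamp (0.984), Ppp1r3g (0.983) and Wnt7a (0.978), and Ocln to Paqr5 (0.982), Rflnb (0.981) and Pltp (0.980). Cldn12 at 0.949 with Fgfr1 and Tjp1 at 0.924 with Agfg1 had no gene as close. Among the members themselves the closest pair was Cldn1 with Cldn2 (0.957), followed by Cldn5 with Tjp1 (0.730) and Cldn5 with Ocln (0.675).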

How the data were processed

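Single-cell RNA was counted with a 10x Genomics Chromium 3' kit in 3 libraries (sham, TBI+PBS and TBI+IL-25), 1 per group. The authors deposited a matrix of UMI counts for each library, not normalized. These came, per the file headers, from Cell Ranger 7.1.0 (sham, TBI+PBS) and 7.2.0 (TBI+IL-25). GRCm39 is the build in the submitters' processing notes, which also list Seurat 4.4.0 and Cell Ranger 7.2.0. How barcodes were selected is not given in the sources used here. The libraries held 39536447, 58148289 and 61372408 UMIs in 8939, 10643 and 14222 barcodes, against 8000 expected cells in the labels.

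From these counts, barcodes under 500 UMIs or 300 genes or over 20% mitochondrial UMIs were dropped, and 211, 301 and 635 doublets (2.36%, 2.83% and 4.46%) were removed by Scrublet in scanpy 1.11.5 with a score threshold of 0.2 set after the scores were seen. Joint clustering used 2000 variable genes without any member or other listed junction gene, 30 principal components, 15 neighbours and Leiden resolution 1 (leidenalg 0.10.2). A cluster took the name of the marker list most fully present in it (a marker in at least 20% of cells, at 2 or more times the median cluster), of 18 lists. It needed at least 3 present markers. It stayed unnamed if its 10 top genes by fold held more markers of another list. A shallow cluster, with medians below each library's median UMIs divided by 3, also needed a marker of its own list among those genes. Cluster 6 had 1 such marker. At resolution 2 a shallow cluster of 1319 cells, closest to the astrocyte list, stayed unnamed.

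UMIs were summed per class and library. Levels carry exact Poisson, ratios exact conditional binomial and shares Clopper-Pearson 95% intervals (SciPy 1.17.1), for counting error only. Since 1 library stands for a group, no test was made. An upper limit for 0 UMIs is 3 counts of the total. The named genes are the 8 members, the 3 highest and 3 lowest called other junction genes in endothelial-like cells, the 2 most abundant per list in a class and the 3 most alike genes. Some genes that meet this rule are not reported here. Mog and Ermn were named after their values were seen. The members, lists and rules were chosen with earlier results of these data known. The calculations were tested on simulated data. Gene coordinates are given only for RefSeq promoters of GRCm38.p6.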

Additional observations from a re-analysis of the deposited data

Results flagged for a closer look

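Some genes lay on opposite sides of 1 in different classes under the same pair of libraries, with intervals that excluded 1. The difference between classes was not tested. For TBI+PBS against sham, Tjp1 was at 1.24 in astrocyte-like cells and 0.463 in microglia-like cells. Against sham, TBI+IL-25 had it at 2.29 in oligodendrocyte-like and 1.61 in astrocyte-like cells, and at 0.793 in microglia-like cells.

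Cldn11 was above 1 where its level was low and below 1 in oligodendrocyte-like cells. For TBI+PBS against sham it was at 3.33 in astrocyte-like, 3.57 in microglia-like and 0.845 in oligodendrocyte-like cells. In TBI+IL-25 against sham it was at 1.66 in astrocyte-like and 0.338 in oligodendrocyte-like cells. The first of these was not called under 9 alternatives, such as cells of at least 1000 UMIs (1.57) or without cluster 6 (1.58).

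For TBI+IL-25 against TBI+PBS, Cldn5 was at 1.22 in endothelial-like and 2.27 in choroid plexus-like cells, and at 0.0904 in astrocyte-like and 0.0818 in microglia-like cells, where its level was under 2 CPM in every library. Endothelial-like cells, which hold nearly all Cldn5, made up 2.14% of cells in TBI+PBS, against 0.369% in TBI+IL-25. The part of that difference in the Cldn5 ratios was not tested. In the same comparison Cldn10 was at 2.32 in choroid plexus-like and 1.71 in oligodendrocyte-like cells, and at 0.880 in astrocyte-like cells.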

How the results depend on the processing

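Of the 35 calls among 76 measured ratios of the listed genes, 17 stayed called under each alternative that gave them a value and 18 were lost or turned under at least 1. With at least 100 UMIs over the pair, 7 calls were counted for TBI+PBS against sham and 6 for TBI+IL-25 against TBI+PBS, because fewer pairs were measured. For Cldn5 in endothelial-like cells, Leiden resolution 0.5 gave 1.79 for TBI+PBS against sham and 1.07 for TBI+IL-25 against TBI+PBS. At that resolution no cluster was named pericyte/smooth muscle, and the endothelial-like class held 41, 235 and 68 cells. The part of such cells in these ratios was not tested. The ratio of TBI+IL-25 to TBI+PBS was 1.33 without cells holding 10 or more glial marker UMIs, 1.11 with median-of-ratios size factors and 1.34 with cells weighed equally. The call of Cldn5 for TBI+PBS against sham was also lost with doublets kept (1.40) and with cells weighed equally (1.46). The call of Cldn10 in astrocyte-like cells for TBI+PBS against sham was lost with cells weighed equally (0.672), as was that of Cldn12 for TBI+IL-25 against sham (1.37). The called ratios of Ocln in endothelial-like cells ranged over the settings from 0.386 to 0.476 against sham and from 0.313 to 0.396 against TBI+PBS, and those of Cldn11 in oligodendrocyte-like cells from 0.291 to 0.348 and from 0.346 to 0.408. Thinning to 1000 UMIs gave shares of 30.0%, 29.8% and 18% for Ocln and 33.3%, 34.3% and 36.0% for Tjp1 in sham, TBI+PBS and TBI+IL-25 endothelial-like cells.

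Direction turned in 5 cases, and the cause was not tested. Cldn10 in choroid plexus-like cells was at 1.01 for TBI+PBS against sham and 0.708 for TBI+IL-25 against TBI+PBS without cells holding glial markers, and at 0.718 for the latter with the class taken from each cell's own markers. Cldn11 in astrocyte-like cells was at 0 for TBI+IL-25 against sham with free RNA subtracted, where 25.5% of UMIs were estimated as free. That estimate was 1.90% in sham and 2.03% in TBI+PBS. Its profile came from barcodes under 600 UMIs (138, 200 and 419 in sham, TBI+PBS and TBI+IL-25). No deposited barcode held fewer than 500 UMIs, so these may be shallow cells, and the estimate is no sure measure of free RNA. Cldn10 in microglia-like cells was at 1.55 for TBI+IL-25 against sham with doublets kept.

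No paired analysis was possible because each group has 1 library, so groups share fewer than 2 replicate numbers and no replicate could be left out. The alternatives without cluster 6, with only clusters of at least 100 cells per library and with cells of at least 2000 UMIs were chosen after seeing the data. Depth limits the endothelial-like and ependymal-like classes of sham most, at 36 and 15 cells.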

Other observations

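Outside the 6 classes, some members were at levels of their own. Fibroblast-like cells, the collagen-making cells of meninges and vessels, held Cldn11 at 30.4 CPM in sham (1 UMI in 7 cells), 133 CPM in TBI+PBS (33 UMIs in 23 cells) and 106 CPM in the TBI+IL-25 library (15 UMIs in 25 cells). In the injured libraries this was above the levels in astrocyte-like and microglia-like cells, which were under 6 CPM. Cldn2 was at 77.8 CPM in TBI+IL-25 fibroblast-like cells, from 11 UMIs in 4 of 25 cells. Pericyte and smooth muscle-like cells, the mural cells of vessels, held Tjp1 at 205, 124 and 572 CPM in sham, TBI+PBS and TBI+IL-25, from 7, 10 and 25 UMIs in 6, 22 and 17 cells. The Tjp1 interval of TBI+IL-25 (370 to 845) lay above that of TBI+PBS (59.4 to 228).

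Among the other junction genes of microglia-like cells, F11r (junctional adhesion molecule A) was the most abundant, at 745, 565 and 456 CPM in sham, TBI+PBS and TBI+IL-25. Ildr2, an angulin-family gene, was at 1.68, 1.47 and 19.1 CPM from 33, 37 and 534 UMIs, a ratio of 13 (9.30 to 18.6) for TBI+IL-25 against TBI+PBS. Afdn, which encodes the adherens junction protein afadin, was at 3.88, 1.63 and 10.9 CPM, a ratio of 6.67 (4.80 to 9.48). Ildr2 and Afdn were chosen after their values were seen.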
